A study of Mus musculus with 6 samples.

Results

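The Hoxa cluster, a run of homeobox transcription factor genes on mouse chromosome 6, was examined in cells labelled as blood stem cells and sorted by the reporter of another gene. Its 9 members here were Hoxa2, Hoxa3, Hoxa4, Hoxa5, Hoxa6, Hoxa7, Hoxa9, Hoxa10 and Hoxa11, taken by symbol from the 55487 genes of the deposited expression table and read in order along the locus. The series holds 6 RNA-seq libraries of cells labelled as long-term haematopoietic stem cells (LT-HSCs), the bone marrow cells that can rebuild and maintain all blood lineages. All libraries came from mice of 1 genotype, given in the labels as Mmrn1-GFP type. Mmrn1 encodes multimerin 1, a protein of platelets and endothelium, and GFP is green fluorescent protein. There were 3 libraries of cells labelled Mmrn1-low and 3 of cells labelled Mmrn1-high. The labels give no treatment, age, strain or surface gate, and do not say how the GFP allele was built, or whether replicates came from separate or pooled mice. The p-values therefore rest on differences among these 6 libraries, and that spread may be technical.

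Hox genes encode DNA-binding proteins that set position along the body axis of the embryo, and each cluster is used in the order in which its genes lie. In blood formation the Hoxa genes are known to be active in stem cells and early progenitors and to be shut down as the cells mature. Their proteins bind DNA with cofactors of the PBX and MEIS families. Trithorax proteins such as MLL1, the product of Kmt2a, keep the cluster active, and Polycomb complexes silence it. Hoxa9 supports stem cell function and is a well-known driver of leukaemia together with Meis1.

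All 9 members lay on the minus strand of chromosome 6 (GRCm38), within 83.4 kb. The 3′ end of the cluster is the gene Hoxa2, at 52162417 to 52164831, and the last member on the 5′ side is Hoxa11, at 52242106 to 52245810. Between them lay Hoxa3 (52169062 to 52213336), Hoxa4 (52189671 to 52191753), Hoxa5 (52201754 to 52204587), Hoxa6 (52206288 to 52208722), Hoxa7 (52214491 to 52221854), Hoxa9 (52223100 to 52231089) and Hoxa10 (52231197 to 52240854). The long gene model of Hoxa3 spans Hoxa4, Hoxa5 and Hoxa6, which shared no exon bases with it.

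The sequences before the start sites of 4 members are shown because these genes had the largest fold change (Hoxa2), the smallest that passed the test (Hoxa7), the most counts (Hoxa9) and the next largest fold change (Hoxa10). Each is the 250 bases before a RefSeq start site on GRCm38.p6, written 5′ to 3′ on the minus strand. Capitals mark matches on either strand to TGATTNAT (a shared HOX and PBX motif), TTTATG (a CDX motif) and TATAAA (the TATA box).
Hoxa2 (chr6:52164832-52165081): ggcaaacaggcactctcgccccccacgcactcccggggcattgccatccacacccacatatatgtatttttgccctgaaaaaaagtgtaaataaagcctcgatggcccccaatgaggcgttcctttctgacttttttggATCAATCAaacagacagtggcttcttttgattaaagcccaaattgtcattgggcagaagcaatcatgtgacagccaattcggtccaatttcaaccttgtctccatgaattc
Hoxa7 (chr6:52218574-52218823): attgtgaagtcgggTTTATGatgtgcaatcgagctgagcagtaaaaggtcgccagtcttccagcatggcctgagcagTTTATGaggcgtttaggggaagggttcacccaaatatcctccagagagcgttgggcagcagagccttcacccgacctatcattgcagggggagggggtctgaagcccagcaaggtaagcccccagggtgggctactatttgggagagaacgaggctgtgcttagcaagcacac
Hoxa9 (chr6:52227371-52227620): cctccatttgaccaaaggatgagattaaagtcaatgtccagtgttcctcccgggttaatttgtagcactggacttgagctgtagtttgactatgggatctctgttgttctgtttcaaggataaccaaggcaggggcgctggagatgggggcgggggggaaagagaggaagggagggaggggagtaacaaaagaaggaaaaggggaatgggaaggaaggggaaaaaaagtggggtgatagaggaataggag
Hoxa10 (chr6:52234940-52235189): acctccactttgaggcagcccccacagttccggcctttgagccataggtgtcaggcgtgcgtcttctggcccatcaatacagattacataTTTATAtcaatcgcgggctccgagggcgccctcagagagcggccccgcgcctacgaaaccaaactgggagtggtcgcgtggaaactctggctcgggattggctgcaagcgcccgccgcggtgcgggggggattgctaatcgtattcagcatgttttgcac
The HOX-PBX match lay upstream of Hoxa2, both CDX matches upstream of Hoxa7 and the TATA box upstream of Hoxa10, while the Hoxa9 sequence held none of the 3. RefSeq windows of 300 bases, with 50 bases past the start, were given for 8 of the 9 members in 9 windows, since Hoxa10 had a pair of start sites. Over those windows, TGATTNAT was found in 1 of 9 against 3.22% of all 32851 promoters, TTTATG in 1 of 9 against 11.9% and TATAAA in 1 of 9 against 13.6%. The CCAAT box (CCAAT) was in 4 of 9 windows against 37.4%, and the MEIS motif TGACAG in 2 of 9 against 19.2%. No motif was therefore shared by all the members, and each match is a description of letters, not a binding site. The windows held 4 to 29 CpG pairs, where the median promoter held 7.

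Most of the tested members were called higher in Mmrn1-high cells. Of the 9, 8 had enough counts to be tested, 7 passed the test and all 7 were higher in Mmrn1-high cells. Hoxa4 did not pass, and Hoxa11 had 0 counts in every library. Of the 15419 genes tested, 30.7% were called higher and 61.2% were called in either direction, by edgeR's quasi-likelihood test at a Benjamini-Hochberg adjusted p under 0.05, so a call was common in this comparison. The median log2 fold change (Mmrn1-high minus Mmrn1-low) of the 8 tested members was 1.13, and that of all genes tested was 0.01. For 7 members every Mmrn1-high library lay above every Mmrn1-low library, a pattern seen in 34.1% of all genes tested (67.8% did not overlap in either direction). Hoxa2, Hoxa3, Hoxa5 and Hoxa10 passed with a log2 fold change of at least 1, as did 11.3% of all genes. The counts above and the median include Hoxa2, which entered the test only through the group in which it was high. Among the other 7 tested members, the middle log2 fold change was that of Hoxa6, 0.95. No member was lower at an unadjusted p under 0.05 in edgeR, DESeq2 or limma voom (0 of 8 in each). Levels below are CPM, counts relative to the library total after TMM scaling, a correction of library size for composition, and they compare libraries for 1 gene, not genes with each other.

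**Figure D1:**
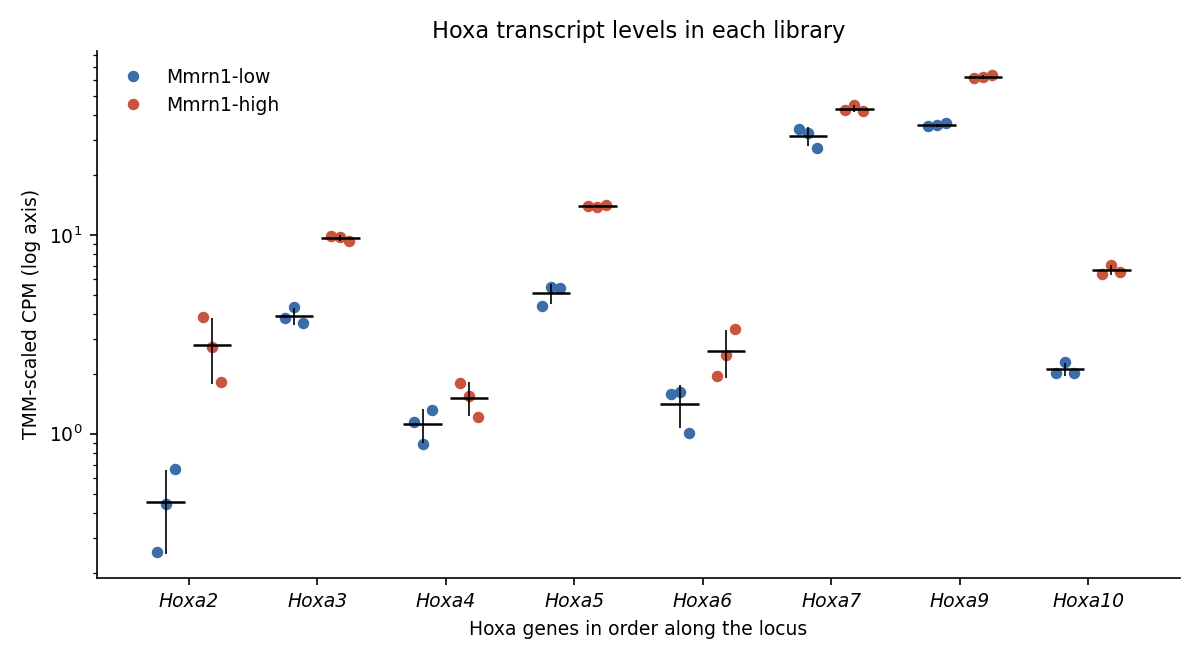
Level of each Hoxa member in each library (CPM scaled by TMM, log axis), with 3 Mmrn1-low and 3 Mmrn1-high libraries as points, the group mean as a horizontal line and its SD as a vertical line. The groups are apart for 7 members and overlap for Hoxa4, while Hoxa11, at 0 counts, cannot be drawn on this axis.

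Hoxa9 and Hoxa7, the central genes of the cluster, carried most of its counts. Hoxa9, the member most studied in stem cells and leukaemia, was at 35.1, 35.5 and 36.3 CPM in Mmrn1-low and 61.3, 61.8 and 63.8 CPM in Mmrn1-high replicates 1 to 3. The spread within each group was small beside the gap between them. It rose 1.75-fold, a log2 fold change of 0.81 ± 0.05 (SE), with a 95% interval of 0.70 to 0.91 and an edgeR quasi-likelihood adjusted p of 2.32e-06. Hoxa7, its neighbour on the 3′ side, was at 34.0, 32.5 and 27.4 CPM in Mmrn1-low and 42.6, 44.9 and 41.7 CPM in Mmrn1-high replicates 1 to 3. The groups did not overlap, but Mmrn1-low replicate 3 lay below the other Mmrn1-low libraries by more than counting error. The chi-square per degree of freedom of the Mmrn1-low counts against counting noise was 8.32 for Hoxa7 and 0.303 for Hoxa9. Hoxa7 rose 1.38-fold, the smallest called change in the cluster (log2 fold change 0.47 ± 0.09 SE, 95% interval 0.27 to 0.66, edgeR adjusted p 0.00182). The intervals of Hoxa7 and Hoxa9 did not overlap.

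Hoxa10, 5′ of Hoxa9 and also known for roles in stem and progenitor cells, was at a far lower level with a larger fold change. It was at 2.03, 2.29 and 2.02 CPM in Mmrn1-low and at 6.37, 7.09 and 6.50 CPM in Mmrn1-high replicates 1 to 3. All 3 Mmrn1-high libraries were close together and well above the others. Hoxa10 rose 3.18-fold (log2 fold change 1.67 ± 0.13 SE, 95% interval 1.38 to 1.96, edgeR adjusted p 1.1e-05). Hoxa11, the next gene on the 5′ side, whose known roles are in limb and reproductive tract, had 0 counts in all 6 libraries. A count of 0 allows up to 3 counts a library, or 0.0971 to 0.259 CPM at these depths, for counting error only. Expression of the cluster was thus detected from Hoxa2 to Hoxa10 and was not detectable at this depth beyond it.

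On the 3′ side of Hoxa7, Hoxa5 and Hoxa3 rose with little spread between libraries of a group. Hoxa5, a paralogue group 5 gene expressed in haematopoietic progenitors, was at 4.38, 5.46 and 5.40 CPM in Mmrn1-low and at 13.9, 13.8 and 14.2 CPM in Mmrn1-high replicates 1 to 3. It rose 2.74-fold (log2 fold change 1.45 ± 0.11 SE, 95% interval 1.21 to 1.70, edgeR adjusted p 9.83e-06). Hoxa3, best known for patterning the pharyngeal arches and the thymus, was at 3.81, 4.35 and 3.59 CPM against 9.89, 9.77 and 9.31 CPM in the same order. It rose 2.49-fold (log2 fold change 1.31 ± 0.11 SE, 95% interval 1.06 to 1.57, edgeR adjusted p 2.11e-05). For both genes the lowest Mmrn1-high library was above 2 times the highest Mmrn1-low library.

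Hoxa6 and Hoxa4 were low and varied more. Hoxa6 had 25, 22 and 29 raw counts in Mmrn1-low and 24, 81 and 50 in Mmrn1-high replicates 1 to 3, or 1.59, 1.62 and 1.01 CPM against 1.96, 2.50 and 3.35 CPM. The groups did not overlap, with Mmrn1-high replicate 1 close to the Mmrn1-low libraries. Hoxa6 rose 1.93-fold (log2 fold change 0.95 ± 0.27 SE, 95% interval 0.32 to 1.57, edgeR adjusted p 0.0158). This call rested on Mmrn1-low replicate 3, without which the log2 fold change was 0.71 and the edgeR adjusted p 0.059. Hoxa4 had 18, 12 and 38 raw counts in Mmrn1-low and 22, 50 and 18 in Mmrn1-high replicates 1 to 3, or 1.14, 0.885 and 1.32 CPM against 1.8, 1.54 and 1.21 CPM. Its groups overlapped, since Mmrn1-high replicate 3 lay below Mmrn1-low replicate 3. The log2 fold change of Hoxa4 was 0.39 ± 0.24 (SE), with an edgeR adjusted p of 0.195. Its 95% interval of −0.17 to 0.94 spans both no difference and the fold change of Hoxa9, so the test does not show that Hoxa4 stayed level.

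Hoxa2, a hindbrain and neural crest gene at the 3′ end of the cluster, had the largest fold change among the tested members, on low counts. It had 4, 6 and 19 raw counts in Mmrn1-low and 47, 89 and 27 in Mmrn1-high replicates 1 to 3. These are 0.254, 0.443 and 0.662 CPM against 3.84, 2.74 and 1.81 CPM. Every Mmrn1-high library was above every Mmrn1-low library, and the chi-square per degree of freedom among the Mmrn1-high libraries was 5.18. The fold change was 5.59 (log2 fold change 2.48 ± 0.38 SE, 95% interval 1.60 to 3.37, edgeR adjusted p 0.000679). No Mmrn1-low library reached the count filter of 0.646 CPM by raw library size, so Hoxa2 entered the test only through the group in which it was high and its call adds nothing to the count of members called. Without Hoxa2, 6 of 7 tested members passed, and for each of those 7 genes all 6 libraries were past the filter.

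**Figure D2:**
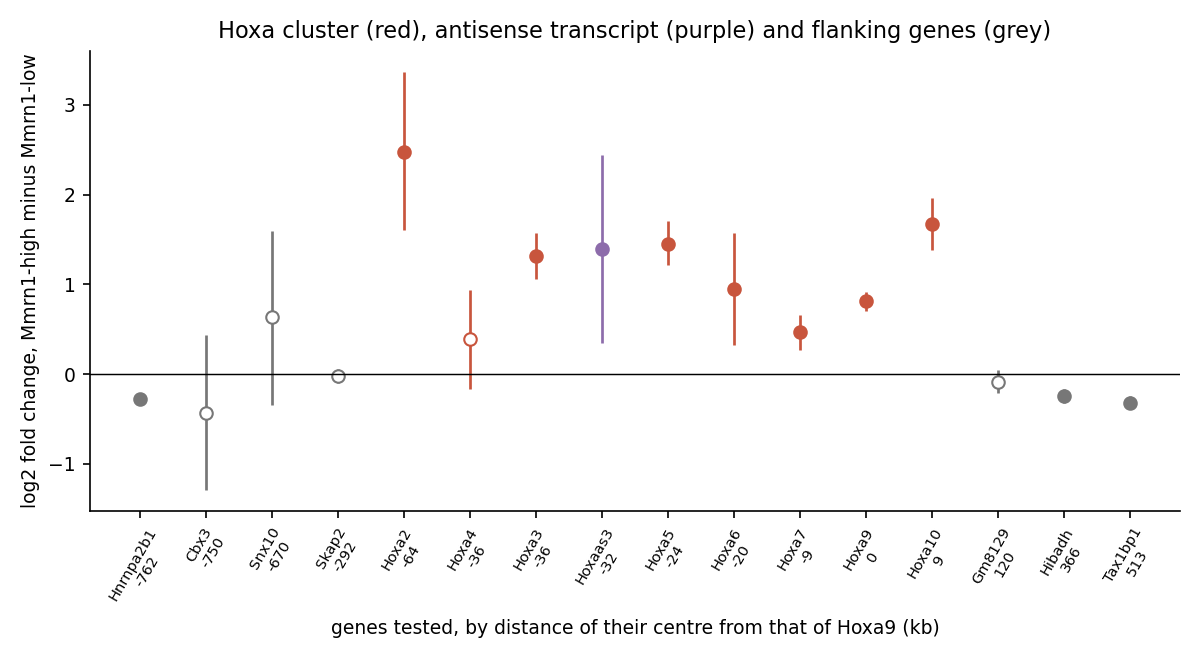
Log2 fold change (Mmrn1-high minus Mmrn1-low, edgeR) of every tested gene within 1 Mb of the Hoxa cluster, with bars for 95% intervals and filled points for called genes. Genes are ordered by the distance of their centre from that of Hoxa9, given in kb under each name. The 8 Hoxa members lie at 0.39 to 2.48, and the 7 tested flanking genes lie at −0.43 to 0.63 with none called higher. Hoxaas3, an antisense RNA inside the locus, lies at 1.39 and entered the test through the group in which it was high. Of all genes tested, 30.7% were called higher.

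None of the tested genes around the cluster was called higher. Within 1 Mb on the 3′ side of the locus, 4 genes were tested, of which 0 were called higher and 1 was called lower. Within 1 Mb on the 5′ side, beyond Evx1, 3 genes were tested, of which 0 were called higher and 2 were called lower. Of all genes tested, 30.7% were called higher and 30.5% lower, so counts this small do not set the flanks apart from other genes. Skap2, an adaptor protein gene and the nearest tested gene on the 3′ side, had a log2 fold change of −0.02 ± 0.03 (SE) and was not called. Scaled by library size alone, which moved the median of all genes to 0.15, Skap2 was called at 0.13 (edgeR adjusted p 0.0162), so its sign depends on the scaling. Snx10, at 0.63, and Cbx3, at −0.43, did not pass. The 3 lower genes were Hnrnpa2b1 at −0.28, Hibadh at −0.25 and Tax1bp1 at −0.32, chosen for naming after their values were seen. None of these 7 genes was higher at an unadjusted p under 0.05 in edgeR, DESeq2 or limma voom (0 in each). No test compared the members with their flanks.

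Other transcripts of the locus were sparse. The table held 39 genes from the 3′ end of the locus to Evx1, of which 30 were not members. Of these 30, 16 had 0 counts in every library, 10 had 1 to 10 counts over all 6 libraries and 1 was tested. That one was Hoxaas3, an antisense RNA, with 6, 10 and 5 raw counts in Mmrn1-low and 14, 32 and 13 in Mmrn1-high replicates 1 to 3. Its log2 fold change was 1.39 ± 0.45 (SE), with an edgeR adjusted p of 0.0273, and it was not called in DESeq2 (adjusted p 0.0976). Mmrn1-low replicates 1 and 3, at 0.381 and 0.174 CPM, lay below the count filter of 0.646 CPM. Hoxaas3 thus entered the test through the group in which it was high, and its call is given as a value alone. It shares 586 exon bases with Hoxa7 and 297 with Hoxa3 on the opposite strand, and with no strand setting given for the counting, such reads cannot be told apart. Hotairm1, another antisense RNA, had 1, 3 and 9 raw counts in Mmrn1-low and 2, 13 and 5 in Mmrn1-high replicates 1 to 3 and was not tested. Gm28308, a gene model that joins Hoxa2 and Hoxa3 exons on the same strand, had 0, 1 and 3 raw counts in Mmrn1-low and 5, 18 and 4 in Mmrn1-high libraries. It shares 267 exon bases with Hoxa2 (15% of that gene's exon bases), so a part of the Hoxa2 reads could be assigned to either. Hoxa13, Hottip, Hoxa11os, Evx1 and Halr1 were at 0 in all 6 libraries, as Hoxa11 was.

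Levels between members can be compared only per length, on the authors' FPKM scale (counts divided by gene length and library total). In Mmrn1-low libraries the order was Hoxa7 at 5.35 ± 0.582 FPKM (mean ± SD, n = 3), Hoxa9 at 4.62 ± 0.0920, Hoxa5 at 2.57 ± 0.312 and Hoxa6 at 1.53 ± 0.370. Then came Hoxa4 at 0.665 ± 0.132, Hoxa3 at 0.574 ± 0.0574, Hoxa10 at 0.297 ± 0.0212 and Hoxa2 at 0.242 ± 0.110 FPKM. Hoxa4 and Hoxa3, and Hoxa10 and Hoxa2, were each within their SDs, and Hoxa7 was above Hoxa9 in Mmrn1-low replicates 1 and 2 but level with it in replicate 3. In Mmrn1-high libraries Hoxa9 led at 8.95 ± 0.170 FPKM, before Hoxa7 at 8.16 ± 0.304, Hoxa5 at 7.82 ± 0.106 and Hoxa6 at 3.13 ± 0.833. Hoxa2 followed at 1.66 ± 0.608, then Hoxa3 at 1.57 ± 0.0537, Hoxa10 at 1.04 ± 0.0577 and Hoxa4 at 0.999 ± 0.199 FPKM. There Hoxa7 and Hoxa5, Hoxa2 and Hoxa3, and Hoxa10 and Hoxa4 were close to or within their SDs.

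The place of Hoxa7, Hoxa9 and Hoxa10 in that order depends on the gene length. For 97.9% of 11390 well-counted genes, the length implied by the deposited FPKM was within 1% of the summed lengths of all distinct exons of GENCODE M21, in which overlapping exons of several transcripts count repeatedly. That length was 1.93 times the non-overlapping exon length for Hoxa7, 1.31 times for Hoxa9 and 2.07 times for Hoxa10, and at most 1.08 times for the other 5 tested members. On the non-overlapping length, Hoxa7 was at 10.3 ± 1.12 FPKM in Mmrn1-low and 15.7 ± 0.587 in Mmrn1-high libraries, and Hoxa9 at 6.06 ± 0.121 and 11.7 ± 0.223. Hoxa7 was then above Hoxa9 in both groups. Hoxa10 was then at 0.613 ± 0.0438 and 2.14 ± 0.119 FPKM. Fold changes of 1 gene between groups do not depend on this length.

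The members did not rise in proportion. The cluster as a whole was at 82.3, 83.1 and 77.7 CPM in Mmrn1-low and 142, 144 and 142 CPM in Mmrn1-high replicates 1 to 3, a 1.76-fold difference. Its exact two-sided permutation p was 0.10, the smallest that 3 against 3 libraries can give. Without Hoxa7 and Hoxa9, the total averaged 14.1 ± 0.928 CPM over the Mmrn1-low and 37.2 ± 0.721 CPM over the Mmrn1-high libraries, a 2.64-fold difference. Hoxa7 and Hoxa9 together held 82.6 ± 1.18% of the cluster's counts in Mmrn1-low and 73.9 ± 0.517% in Mmrn1-high libraries. The remaining members therefore took a larger part of the cluster in each Mmrn1-high library than in any Mmrn1-low library.

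**Figure D3:**
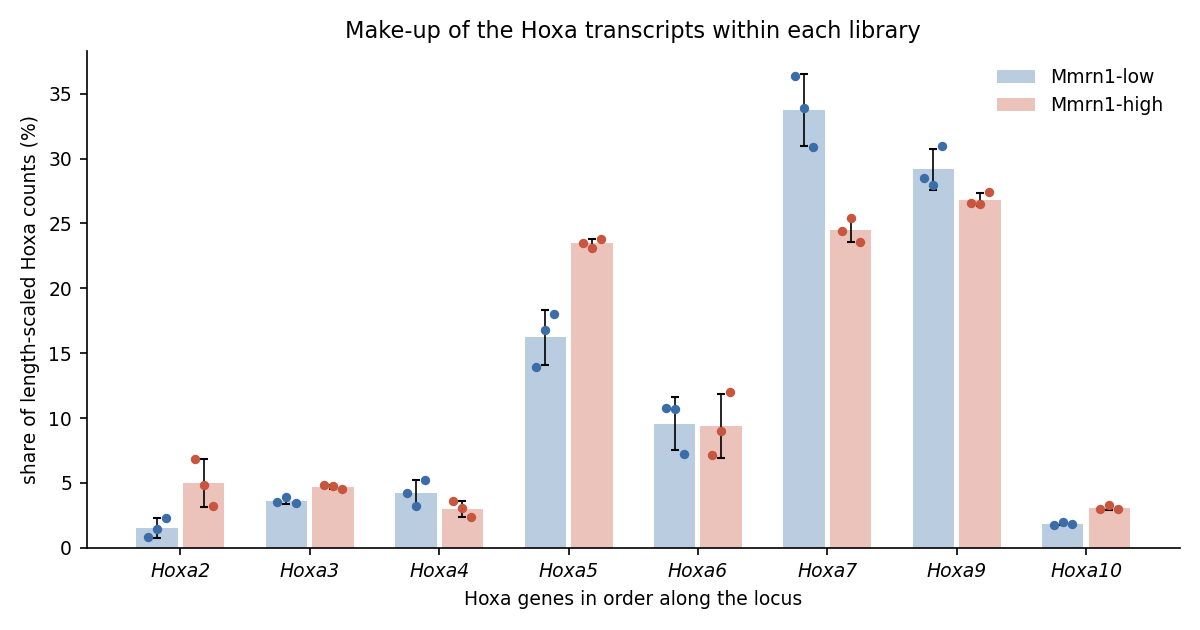
Share of each member in the length-scaled counts of the Hoxa cluster (percent, deposited length), with group means as bars, SDs as error bars and the 3 libraries of each group as points. Hoxa7 takes 30.9% to 36.4% in Mmrn1-low and 23.6% to 25.4% in Mmrn1-high libraries, and Hoxa5 takes 13.9% to 18.0% and 23.1% to 23.8%.

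Shares of the length-scaled counts are free of the scaling between libraries. The share of Hoxa7 was 33.7 ± 2.79% in Mmrn1-low and 24.5 ± 0.891% in Mmrn1-high libraries, and that of Hoxa5 was 16.2 ± 2.13% and 23.5 ± 0.332%. Hoxa3 took 3.62 ± 0.235% and 4.71 ± 0.170%, and Hoxa10 took 1.87 ± 0.0853% and 3.11 ± 0.166%. For these 4 genes the groups did not overlap, with an exact permutation p of 0.10 each, 0.133 after adjustment over the 8 members. By level, 67.8% of single genes tested did not overlap in either direction. Hoxa2 took 1.54 ± 0.747% and 4.98 ± 1.84%, given as values alone since it was tested only through the group in which it was high. Hoxa9 took 29.2 ± 1.61% and 26.9 ± 0.483%, also at p = 0.10 (exact permutation test). On the non-overlapping length, however, the Hoxa9 share differed by −0.707 percentage points with an exact permutation p of 0.80, so that difference depends on the length used. The groups overlapped for Hoxa4, at 4.22 ± 0.993% and 3.00 ± 0.604%, and for Hoxa6, at 9.59 ± 2.04% and 9.39 ± 2.48%.

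Ratios between neighbours, taken within each library, compare the change of adjacent members along the locus. The log2 ratio of Hoxa9 to Hoxa10 was 3.99, 3.84 and 4.05 in Mmrn1-low and 3.15, 3.01 and 3.18 in Mmrn1-high replicates 1 to 3, lower by 0.85 on average in Mmrn1-high libraries. That of Hoxa7 to Hoxa9 was 0.35, 0.27 and −0.01 against −0.12, −0.06 and −0.21, a mean difference of −0.34. The ratio of Hoxa4 to Hoxa5 differed by −1.03 and that of Hoxa3 to Hoxa4 by 0.87. Groups did not overlap for these 4 of the 6 pairs compared, each at an exact permutation p of 0.10, or 0.15 after adjustment over the pairs. The pairs share genes, and the share of other gene pairs that do not overlap was not computed. Of single genes tested, 67.8% did not overlap in either direction, so these pairs are given as values alone. Hoxa5 to Hoxa6, at 0.58, and Hoxa6 to Hoxa7, at 0.42, overlapped between groups, and Hoxa2 to Hoxa3 was not compared because Hoxa2 had under 10 counts in some libraries. The pairs that were apart lay on both sides of the cluster, with Hoxa7 and Hoxa4 changing less than a neighbour.

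Measured against Hoxa9, log2 ratios in Mmrn1-high libraries differed from those in Mmrn1-low by 0.85 for Hoxa10, 0.66 for Hoxa5 and 0.50 for Hoxa3, and by −0.34 for Hoxa7. For these 4 of the 7 genes compared, groups did not overlap (exact permutation p 0.10 each, 0.14 adjusted). As for the neighbours, no share over other genes was computed, and 67.8% of single genes tested did not overlap in either direction. The difference of 1.86 for Hoxa2 rests on 4 to 19 raw counts in Mmrn1-low libraries and is given as a value alone. Hoxa6 differed from Hoxa9 by 0.08 with overlapping groups and Hoxa4 by −0.37, also overlapping. With Hoxa10 as the reference, the ratio of Hoxa3 differed by −0.35 (exact permutation p 0.10) and that of Hoxa5 by −0.19 (exact permutation p 0.30, no difference shown).

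Library totals were 14288095 to 30180151 counts in Mmrn1-low and 11595104 to 30909990 counts in Mmrn1-high libraries, ranges that overlap. Mmrn1, the gene of the labels, averaged 5.69 ± 0.112 CPM over the Mmrn1-low and 10.0 ± 1.33 CPM over the Mmrn1-high libraries (log2 fold change 0.82 ± 0.12 SE, edgeR adjusted p 0.000485). Markers of other blood cells differed between groups as well, in a comparison in which 30.7% of all genes tested were called higher and 30.5% lower. Of 12 markers of long-term stem cells, 10 were higher in Mmrn1-high libraries and 0 lower, with sums of 420 to 444 CPM against 664 to 703 CPM. Vwf and Hoxb5 among them were not called. All 4 markers of multipotent progenitors (660 to 675 against 1651 to 1698 CPM) and all 7 of lymphoid progenitors (107 to 115 against 571 to 589 CPM) were higher. All 7 markers of granulocyte progenitors, among them Mpo and Elane, were lower, at 23210 to 24479 against 3426 to 3499 CPM. All 8 macrophage markers were lower as well, at 149 to 152 against 18.1 to 20.4 CPM. Cd5l among them was at 0.0617 to 0.268 CPM in Mmrn1-high libraries, below the count filter of 0.646 CPM. It was thus tested only through the group in which it was high. The other 5 marker lists were mixed, as the tested genes were as a whole, and are given as values alone. Of tested T and natural killer cell markers 3 were higher and 1 lower (459 to 466 against 147 to 150 CPM), and of plasma cell markers 1 was higher and 3 lower (822 to 948 against 376 to 418 CPM). Erythroid markers had 1 higher and 3 lower (236 to 244 against 209 to 213 CPM). Endothelial markers (145 to 156 against 229 to 245 CPM) and marrow stroma markers (135 to 148 against 253 to 266 CPM) each had 4 higher and 3 lower. Most of the stroma sum came from the higher genes Pdgfrb (mean 44.1 against 131 CPM) and Runx2 (83.6 against 117 CPM). Stab2, a lower endothelial marker, was likewise tested only through the Mmrn1-low group. In bulk RNA, fewer cells of a type and less RNA per cell cannot be told apart, and the part of these cell types in the Hoxa differences was not tested. Transcripts of granulocyte and multipotent progenitors were present in both groups. The name LT-HSC is therefore that of the labels, and the purity of the sorted cells was not tested.

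Among the other Hox clusters, Hoxb was the only one with tested genes in this fit. Of the 10 Hoxb genes 4 were tested, 2 were higher and 0 lower, against 30.7% and 30.5% of all genes, and their median log2 fold change was 0.66. Hoxb2 was at 1.21, 1.70 and 1.67 CPM in Mmrn1-low and 3.10, 2.84 and 2.34 CPM in Mmrn1-high replicates 1 to 3 (log2 fold change 0.84 ± 0.20 SE). Hoxb3 was at 6.35, 5.39 and 5.75 CPM against 10.6, 9.43 and 7.44 CPM (0.65 ± 0.15 SE). Hoxb4, a gene known to expand stem cells when overexpressed, had the most counts among the Hoxb genes and was at 12.8, 13.4 and 13.8 CPM against 14.1, 14.7 and 16.9 CPM. It did not pass at 0.19 ± 0.09 (SE), nor did Hoxb5 at 0.67 ± 0.41. The Hoxb total averaged 21.9 ± 0.576 CPM over the Mmrn1-low and 29.2 ± 1.54 CPM over the Mmrn1-high libraries, 1.33-fold higher. The ratio of the Hoxa to the Hoxb total was 3.75, 3.90 and 3.46 against 4.60, 4.98 and 5.12, so Hoxa gained on Hoxb in every Mmrn1-high library (exact two-sided permutation p 0.10). Of 9 Hoxc genes none was tested, and all 9 Hoxd genes had 0 counts in every library.

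**Figure D4:**
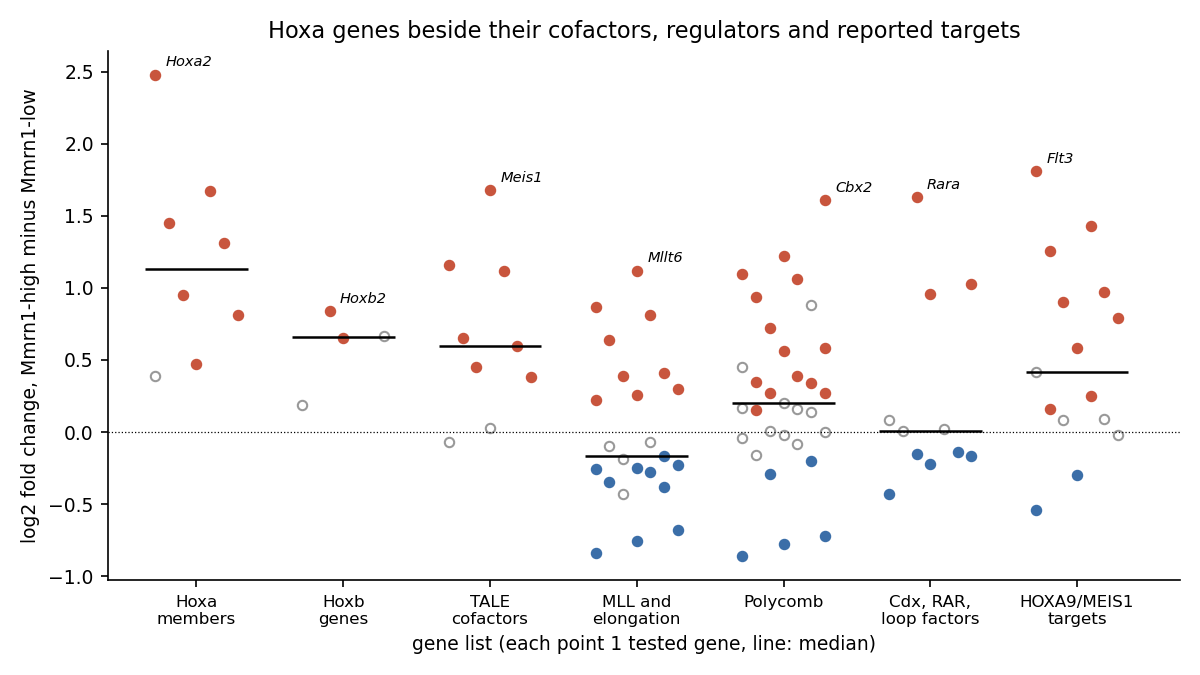
Log2 fold change (Mmrn1-high minus Mmrn1-low, edgeR) of each tested gene in the Hoxa and Hoxb clusters and in 5 lists of cofactors, regulators and targets, with list medians as lines and filled points for called genes. Hoxa members, with Hoxa2 included, have a median of 1.13, TALE cofactors 0.60, MLL genes −0.17 and Polycomb genes 0.20, and all genes tested have 0.01.

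Most tested DNA-binding cofactors of the HOXA proteins were higher as well. Of 12 TALE homeobox genes and partners, 9 were tested, 7 were higher and 0 lower, against 30.7% and 30.5% of all genes, and their median log2 fold change was 0.60. No TALE gene was lower at an unadjusted p under 0.05 in edgeR, DESeq2 or limma voom. Meis1, which encodes the partner of HOXA9, was at 33.9, 30.0 and 35.7 CPM in Mmrn1-low and 106, 106 and 109 CPM in Mmrn1-high replicates 1 to 3. It rose 3.21-fold (log2 fold change 1.68 ± 0.07 SE, edgeR adjusted p 3.04e-07). Pbx4 had a log2 fold change of 1.16 ± 0.10 (SE) and Pbxip1, which encodes a PBX-interacting protein, of 0.45 ± 0.04. Pbx2, at −0.07 ± 0.04, and Pknox1, at 0.03 ± 0.09, did not pass.

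Regulators of the cluster moved in both directions, as the tested genes did as a whole, and those below are named for their values alone. Of 23 genes of the MLL complex and its elongation partners, all were tested, 9 were higher and 10 lower, against 30.7% and 30.5% of all genes, with a median log2 fold change of −0.17. Kmt2a, which encodes the histone methyltransferase MLL1, was at 129, 126 and 126 CPM in Mmrn1-low and 196, 195 and 200 CPM in Mmrn1-high libraries (0.64 ± 0.03 SE). Mllt6 (1.12 ± 0.04 SE) and Kdm6b, a demethylase of the Polycomb mark (0.87 ± 0.04 SE), were also higher, while Aff1, a subunit of the elongation complex, was lower (−0.76 ± 0.04 SE). Men1, which encodes menin, the tether of MLL1 to chromatin, did not pass at −0.19 ± 0.30 (SE) on 12 to 36 raw counts a library.

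Of 31 Polycomb genes, all were tested, 14 were higher and 5 lower, against 30.7% and 30.5% of all genes, and their median log2 fold change was 0.20. Cbx2, a reader subunit of the Polycomb repressive complex, was at 10.9, 11.6 and 13.0 CPM in Mmrn1-low and 36.0, 36.7 and 35.6 CPM in Mmrn1-high replicates 1 to 3 (1.61 ± 0.08 SE). Phc1 rose as well (1.10 ± 0.07 SE). Among the lower genes were Yaf2 (−0.78 ± 0.07 SE), Jarid2 (−0.72 ± 0.04), Rybp (−0.29 ± 0.07) and Kdm2b (−0.20 ± 0.05). The calls of Rybp and Kdm2b were lost with scaling by library size alone. Bmi1, needed for stem cell self-renewal, was higher at 0.27 ± 0.04 (SE). Ezh2, the methyltransferase of the repressive mark, was at 0.01 ± 0.04 and did not pass, but was called higher at 0.16 with library size alone.

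Of 15 genes for CDX factors, retinoic acid receptors and DNA loop factors, 11 were tested, 3 were higher and 5 lower, against 30.7% and 30.5% of all genes, and their median log2 fold change was 0.01. The share of higher genes was thus near that of all genes, and the genes are named for their values alone. The CDX genes Cdx1, Cdx2 and Cdx4, upstream activators of Hox genes in the embryo, had 0 counts in every library. The higher genes were the retinoic acid receptors Rara (1.63 ± 0.10 SE) and Rarg (0.96 ± 0.13) and their partner Rxra (1.03 ± 0.07). Rara was at 9.14, 10.0 and 11.0 CPM in Mmrn1-low and 28.7, 34.2 and 31.2 CPM in Mmrn1-high replicates 1 to 3. The lower genes were the cohesin subunits Rad21 (−0.43 ± 0.03 SE), Smc1a (−0.17 ± 0.03), Smc3 (−0.14 ± 0.03), Stag1 (−0.22 ± 0.05) and Stag2 (−0.15 ± 0.03). The calls of all but Rad21 among these were lost with library size alone.

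Of 15 genes known as targets of HOXA9 and MEIS1, all were tested, 9 were higher and 2 lower, against 30.7% and 30.5% of all genes, and their median log2 fold change was 0.42. Flt3, a cytokine receptor, was at 156, 155 and 158 CPM in Mmrn1-low and 546, 551 and 542 CPM in Mmrn1-high replicates 1 to 3 (1.81 ± 0.03 SE). Sox4 (1.43 ± 0.03 SE), Cd34 (1.26 ± 0.03) and Erg (0.97 ± 0.04) were also higher. Myb, a transcription factor of proliferating progenitors, was lower (−0.54 ± 0.03 SE), as was Igf1r (−0.30 ± 0.03). Flt3 and Cd34 are also among the markers of multipotent progenitors above, so the lists are not independent.

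The profile most like that of Hoxa9, among 4697 protein-coding genes at a similar level outside the Hox clusters, was that of Card19. Its root mean square distance from Hoxa9 over the 6 libraries was 0.0269 on the log2 scale. Golm1 followed at 0.0315 and Macrod1 at 0.0342. Card19 was at 22.8, 23.9 and 23.2 CPM in Mmrn1-low and 40.7, 41.0 and 41.1 CPM in Mmrn1-high replicates 1 to 3. With 6 libraries in a pair of groups, a close profile is mainly an equal fold change.

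Within the gene model of Hoxa9 lies the microRNA miR-196b, whose known targets include Hox genes. Its mature RNA is shown with its seed, bases 2 to 8, in capitals, from RefSeq on GRCm38.p6 (chr6:52230129-52230150, minus strand). The stretches below it are 23 bases of the 3′ untranslated regions of members, with the match to the seed (ACTACCT) in capitals.
miR-196b-5p: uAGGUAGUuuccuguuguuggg
Hoxa4 (chr6:52190059-52190081): ggccatcgACTACCTttgagtca
Hoxa5 (chr6:52202111-52202133): ttattcaaACTACCTatattcct
Hoxa7 (chr6:52215393-52215415): gccaaaatACTACCTagcacagg
Hoxa9 (chr6:52223893-52223915): gaaagaaaACTACCTttttatat
Hoxa4, Hoxa5 and Hoxa9 had 1 match each and Hoxa7 had 4, of which the one nearest the coding sequence is shown. The other 5 members had none. A match was found in 4 of 9 members and in 6.2% of 20548 genes with such a region. The tested members with a match had log2 fold changes of 0.39, 1.45, 0.47 and 0.81 in locus order, and those without a match 2.48, 1.31, 0.95 and 1.67, so the ranges overlap. The libraries were made from poly-A RNA and do not measure the mature microRNA. Its own gene row held 1 count in each library.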

How the data were processed

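Poly-A RNA was sequenced in 6 libraries on an Illumina NovaSeq, as stranded paired-end libraries per the labels' protocols. The deposited table gives raw read counts per gene and FPKM, per the file headers. CASAVA 1.8, HISAT2, StringTie, edgeR and GRCm38 are named without roles, per the submitters' processing notes. For the counting, no strand setting is given in the sources used here. The authors' FPKM carried no correction for composition. Of the gene identifiers, 55141 matched GENCODE M21.

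Counts were tested with edgeR 4.0.16 (R 4.3.3; TMM factors, filterByExpr, group only, robust quasi-likelihood F test, Benjamini-Hochberg over all 15419 genes tested, threshold 0.05). SE is the log2 fold change over the square root of F, and 95% intervals use the t distribution with the fit's degrees of freedom. Single values per library were compared by exact two-sided permutation tests, which cannot go below 0.10 for 3 against 3. Count depths were 11595104 to 30909990, so 3 counts equal 0.0971 to 0.259 CPM. Limits and noise ratios cover counting error only. The procedure was tested on simulated data. Motifs were searched on both strands, and 3′ untranslated regions came from 1 GENCODE transcript a gene.

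The members, lists, motifs and named genes were chosen with earlier results of these data known. Named were the members, other genes of the locus, Mmrn1, a fixed set of cofactors and regulators (among them Meis1, Kmt2a, Men1, Ezh2, Bmi1 and Cdx4), up to 4 called genes with the smallest p of each other list and every called gene of a count of 5 or fewer, and the 3 profiles most like Hoxa9. Not every gene so chosen is reported here. Alternatives were other scaling factors, filters, DESeq2 1.42.0, limma voom 3.58.1, a replicate block, protein-coding genes alone, the authors' FPKM as log2(FPKM + 1) or with a pseudocount of 0.1, other thresholds and leaving out each library. Non-overlapping exon lengths and the total without Hoxa7 and Hoxa9 were added after seeing the data.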

Additional observations from a re-analysis of the deposited data

How the results depend on the processing

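The 7 called members remained called with DESeq2, limma voom, RLE factors, scaling by library size, no count filter, protein-coding genes alone and FPKM without a filter, in which 18.5% to 40.2% of all genes were called higher. With a log2 fold change of at least 1 required, 4 passed. A filter of 5 CPM in 3 libraries left Hoxa2, Hoxa4 and Hoxa6 untested, and the FPKM filter left Hoxa4 and Hoxa10 untested. Leaving out 1 library at a time gave 6 to 7 called members, with Hoxa6 at 0.71 to 1.09 and not called without Mmrn1-low replicate 3. Such fits moved the log2 fold change of Hoxa2 between 2.24 and 3.00, and log2(FPKM + 1) gave at least 1.08. Other transcripts of the locus called numbered 0 with DESeq2, unfiltered FPKM and the replicate block, 2 (Hoxaas3 and Skap2) with library size alone, and 0 to 1 on leaving out a library. The 5 CPM filter and protein-coding genes alone also gave 0, but left Hoxaas3 untested, so it could not be called there. Hoxaas3 lost its call without Mmrn1-high replicate 1 (log2 fold change 1.32) or 2 (1.41) or Mmrn1-low replicate 1 (1.40) or 3 (0.85), and ranged from 0.85 to 1.95 on leaving out a library. Hoxb genes called fell to 1 with the 5 CPM filter.

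With the replicate number as a block, 7 members and 2 Hoxb genes were called. The labels do not say whether the numbers pair the libraries. Deviations of same-numbered libraries correlated at 0.0426, −0.0785 and 0.0286 across genes, and those of differently numbered libraries at −0.0927 to 0.0715. These values show no pairing but cannot exclude it. The Hoxa6 share differed by 0.0979 percentage points on raw counts, 0.259 on non-overlapping length and −1.53 to 0.923 on leaving out a library, against −0.204. With Hoxa10 as reference the differences were −0.35 for Hoxa3, −0.19 for Hoxa5 and −0.77 for Hoxa6; Hoxa6 against Hoxa9 ranged from −0.16 to 0.25 on leaving out a library. Signs also changed for Men1 (0.00 with unfiltered FPKM), Ezh2 (−0.01 to 0.04 on leaving out a library), Smc3 (0.00 with FPKM or library size), Stag2 (0.00 with library size), Skap2 (0.12 with FPKM, 0.03 with the 5 CPM filter, 0.13 with library size, −0.03 to 0.00 on leaving out a library), the MLL list's median (0.01, 0.01 and 0.00 with FPKM) and the median of CDX, retinoic acid and loop genes (−0.00 to 0.02 on leaving out a library). Where no reason is given, the cause was not tested. Low counts limit Hoxa2, Hoxa4, Hoxa6 and Hoxaas3.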
